A study of Homo sapiens with 10 samples.

Results

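The genes described here are *SLC2A1*, which encodes a glucose transporter of the plasma membrane, and 9 genes of the glycolytic chain that turns glucose into lactate: *HK2*, *GPI*, *PFKP*, *ALDOA*, *GAPDH*, *PGK1*, *ENO1*, *PKM* and *LDHA*. They are 10 of the 59386 genes counted, chosen by name for their place in the pathway with earlier results of these data known. Their RNA was compared between control cells and cells in which one of a pair of chromatin remodelers had been knocked down. Cells of VCaP, an established line from a human prostate cancer, were transfected with 30 pmol of siRNA and harvested 72 h later for RNA sequencing. *SMARCA4*, the ATPase of the SWI/SNF remodelers, was targeted with siRNA A or siRNA B, and *SMARCA1*, an ATPase of the ISWI remodelers, with siRNA A or siRNA C. Each siRNA and the control had 2 libraries, so that 4 *SMARCA4* knockdown, 4 *SMARCA1* knockdown and 2 control libraries were available. The labels give the control libraries the genotype WT and name neither a control siRNA nor a dose for them. The study asked whether these remodelers take part in the control of MYC signaling by the long non-coding RNA *IGF1R-AS1*.

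Glycolysis splits glucose into pyruvate and yields ATP and NADH on the way, and lactate dehydrogenase then regenerates NAD+ by reducing pyruvate to lactate. Tumor cells often run this route at a high rate even when oxygen is present. In many cell types its genes are activated by MYC, which binds the E-box, and by hypoxia-inducible factors, which bind a hypoxia response element.

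Total counts per library lay between 23898545 and 34667965, and a floor of 3 counts corresponded to at most 0.1255 CPM (counts scaled to the size of the library). Library sizes were corrected by TMM, and a gene was called changed at an adjusted p below 0.05 in edgeR's quasi-likelihood test over 16899 genes. *SMARCA4* fell from 242.2 and 267.6 CPM in the controls to between 13.3 and 25.2 CPM in its knockdown, and *SMARCA1* from 32.3 and 31.5 CPM to between 1.75 and 3.40 CPM in its own. *SMARCA1* rose in *SMARCA4* knockdown, to between 57.4 and 83.8 CPM (log2 fold change 1.07 ± 0.18, adjusted p = 0.001). The 13 prostate epithelial markers examined were all detected in every group. No source says that replicate libraries came from separate cultures, so p-values measure only the spread between these libraries, which may be technical. Within *SMARCA4* siRNA A, replicate 2 was lower than replicate 1 for 10 of the 10 glycolytic genes, within *SMARCA4* siRNA B and *SMARCA1* siRNA A for 9, and within the controls and *SMARCA1* siRNA C for 6. Over all genes tested these shares lay between 47.1% and 54.9%.

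Sequence upstream of the transcription start is shown for the genes of this set whose RNA fell by most in *SMARCA4* knockdown and whose upstream window is free, or nearly free, of the exons counted. All 10 genes matched RefSeq (GRCh38.p14), with 17 start sites. In the 250 bases before each start, 2 motifs were searched on both strands: the E-box CACGTG, and the core of the hypoxia response element, ACGTG or GCGTG, which an E-box also contains. Capitals mark every match, in the reading direction of the gene. *LDHA* is shown before its first start (chr11:18394313-18394562, plus strand, of which the last 3 bases lie in an *LDHA* exon), *PGK1* before its only start (chrX:78103998-78104247, plus strand, outside the exons counted) and *HK2* before its second start (chr2:74834920-74835169, plus strand, outside the exons counted).
LDHA: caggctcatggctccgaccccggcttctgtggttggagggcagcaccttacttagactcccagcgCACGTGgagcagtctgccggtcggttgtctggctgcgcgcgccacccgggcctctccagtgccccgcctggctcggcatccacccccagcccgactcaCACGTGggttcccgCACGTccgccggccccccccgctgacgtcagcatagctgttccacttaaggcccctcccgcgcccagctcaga
PGK1: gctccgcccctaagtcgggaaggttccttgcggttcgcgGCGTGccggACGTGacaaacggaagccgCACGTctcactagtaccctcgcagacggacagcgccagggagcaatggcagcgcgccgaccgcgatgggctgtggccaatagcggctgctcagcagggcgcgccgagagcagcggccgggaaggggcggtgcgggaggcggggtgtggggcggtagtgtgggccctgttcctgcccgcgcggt
HK2: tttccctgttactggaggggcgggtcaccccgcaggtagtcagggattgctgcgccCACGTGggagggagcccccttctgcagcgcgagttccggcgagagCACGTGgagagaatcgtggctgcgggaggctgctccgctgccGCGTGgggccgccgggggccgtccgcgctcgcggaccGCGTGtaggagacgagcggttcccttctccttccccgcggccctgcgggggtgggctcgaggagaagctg

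The *LDHA* window held 2 E-boxes and 1 further hypoxia response core, the *HK2* window 2 E-boxes and 2 further cores, and the *PGK1* window 3 cores and no E-box. The windows not shown for these genes held no E-box. Before the first start of *HK2* there were 3 cores, and before the second start of *LDHA* there was 1. Across the set, 4 of the 10 genes had an E-box in at least 1 window (*HK2*, *ALDOA*, *GAPDH* and *LDHA*), against 6.34% of all 35116 RefSeq windows of the same length. A hypoxia response core was found for 8 of the 10 genes, *SLC2A1* and *PKM* being without one, against 43.2% of all windows. For *GAPDH* the core lay only within its E-box. For 4 of the 10 genes more than 1 window was searched, so these counts per gene are not shares of windows. Counted by window, 4 of the 17 windows held an E-box and 13 of the 17 a core. These letters describe the windows only, and no binding was measured.

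Knockdown of *SMARCA4* lowered 7 of the 10 genes and raised none. *LDHA*, *HK2*, *PGK1*, *GPI*, *ENO1*, *GAPDH* and *PKM* were called lower, while *SLC2A1*, *PFKP* and *ALDOA* did not pass the test. Of all genes tested, 22.3% were called lower and 22.8% higher in this comparison, so that calls were common in general. The count of 7 was 3 without control replicate 1, and 4 without control replicate 2, *SMARCA4* siRNA A replicate 2 or *SMARCA4* siRNA B replicate 2. The median log2 fold change of the 10 genes was -0.44, against 0.00 over all genes tested. Knockdown of *SMARCA1* lowered 3 of the 10 genes, *LDHA*, *GPI* and *PGK1*, and raised none, at a median log2 fold change of -0.14. There, 23.0% of all genes were called lower and 23.8% higher, so that the share of the 10 genes called lower was near that of all genes. Both knockdowns were measured against the same 2 control libraries. Because RNA was taken from bulk cultures, fewer cells of a type and less RNA per cell cannot be told apart.

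**Figure D1:**
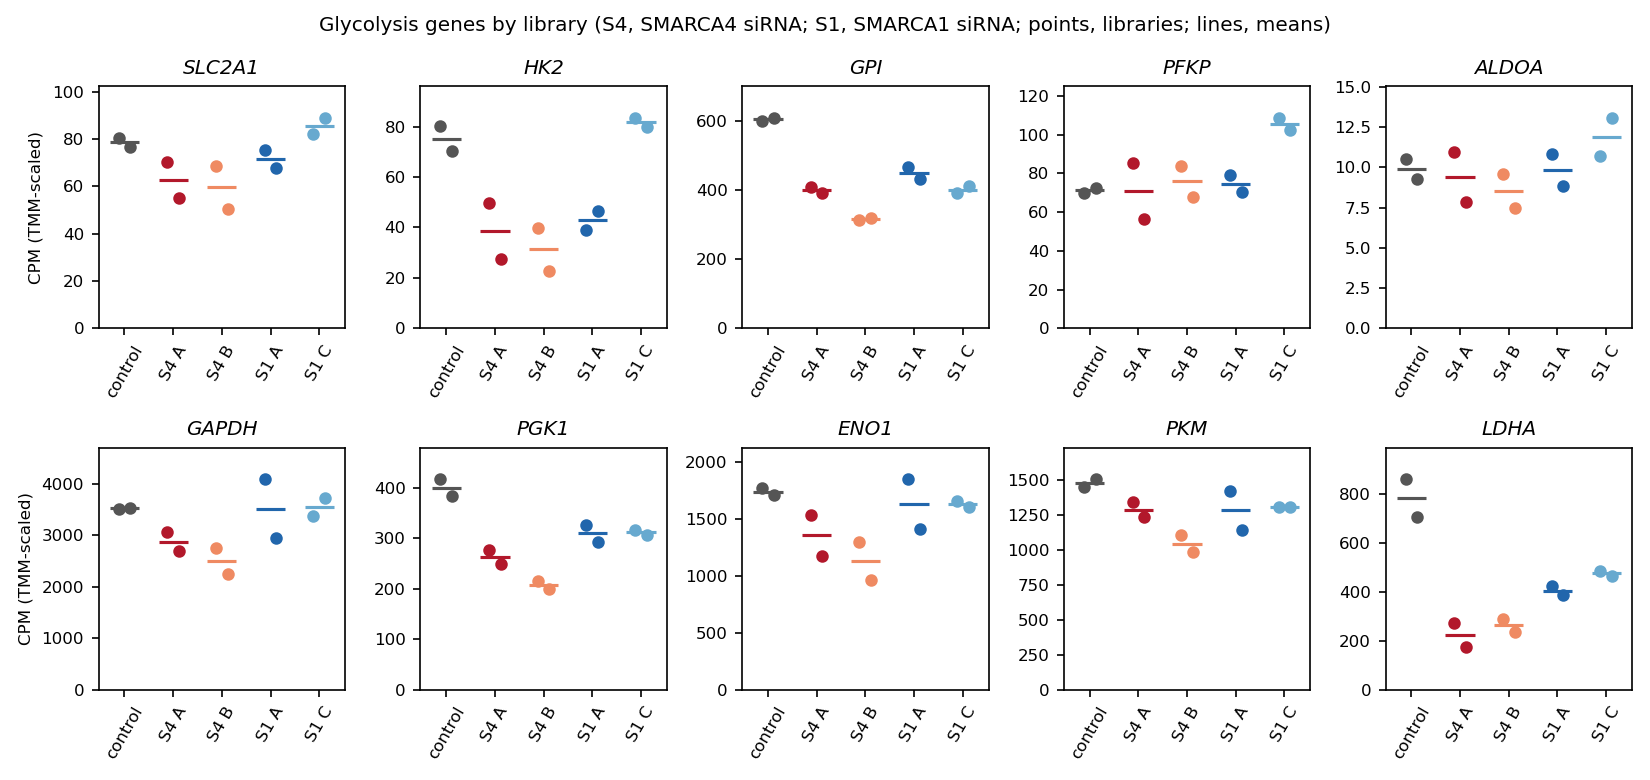
TMM-scaled CPM (vertical axes, from 0) of the 10 glycolytic genes in each library, by group along the horizontal axes; points are libraries and lines the means of 2 libraries. All 4 SMARCA4 knockdown libraries (S4) lay below both controls for 8 of the 10 genes, all but PFKP and ALDOA, and all 4 SMARCA1 knockdown libraries (S1) did so for GPI, PGK1, PKM and LDHA. The same held for 29.0% of all genes tested in SMARCA4 knockdown and for 29.1% in SMARCA1 knockdown.

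Transport of glucose into the cell comes first. *SLC2A1* (chr1:42925353-42958893, minus strand) stood at 80.5 and 76.8 CPM in the controls. In *SMARCA4* knockdown it stood at 70.3 and 54.9 CPM with siRNA A and 68.6 and 50.5 CPM with siRNA B, all below the controls. In *SMARCA1* knockdown it was 75.1 and 67.6 CPM with siRNA A and 82.3 and 89.0 CPM with siRNA C, on both sides of the controls. The log2 fold change in *SMARCA4* knockdown was -0.37 ± 0.14 (SE; 95% interval -0.68 to -0.05), which did not pass the test after adjustment (adjusted p = 0.056). In *SMARCA1* knockdown it was -0.01 ± 0.14 (interval -0.32 to 0.31, adjusted p = 0.97). The log2 difference between the knockdowns, -0.36 ± 0.12, did pass (adjusted p = 0.036), and it lost its call without either control, either *SMARCA1* siRNA C library, *SMARCA1* siRNA A replicate 1 or replicate 2 of either *SMARCA4* siRNA, with adjusted p-values up to 0.14.

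*HK2* encodes hexokinase 2, which phosphorylates glucose so that it stays in the cell (chr2:74834127-74893359, plus strand). Its level was 80.1 and 70.2 CPM in the controls. With *SMARCA4* siRNA A it was 49.6 and 27.3 CPM, and with siRNA B 39.9 and 22.6 CPM, so that both siRNAs were below both controls. *SMARCA1* siRNA A gave 39.0 and 46.6 CPM, also below the controls, whereas siRNA C gave 83.6 and 79.8 CPM, which overlapped them. *HK2* fell in *SMARCA4* knockdown by 1.12 ± 0.24 on the log2 scale (adjusted p = 0.004). Without control replicate 1 the log2 fold change was -0.98, and the adjusted p of 0.05, as rounded, no longer passed. In *SMARCA1* knockdown, where its siRNAs diverged, the log2 fold change was -0.35 ± 0.24 (interval -0.89 to 0.20, adjusted p = 0.27). For siRNA A alone it was -0.81 ± 0.29 (adjusted p = 0.051) and for siRNA C alone 0.12 ± 0.28 (adjusted p = 0.76). The difference of the *SMARCA1* siRNAs, 0.93 ± 0.29 on the log2 scale, was not called (adjusted p = 0.17).

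*HK1*, the hexokinase that most tissues share, moved the other way. Its level was 255.9 and 263.6 CPM in the controls, between 315.0 and 378.2 CPM after *SMARCA4* knockdown and between 336.0 and 365.6 CPM after *SMARCA1* knockdown, without overlap. *HK1* rose by a log2 fold change of 0.42 ± 0.10 in *SMARCA4* knockdown (adjusted p = 0.0067) and of 0.43 ± 0.10 in *SMARCA1* knockdown (adjusted p = 0.0057). Measured per length as FPKM (CPM per kilobase of exon), *HK2* made up 25.0% and 22.1% of the *HK1* and *HK2* RNA in the controls. That share lay between 7.10% and 12.2% in *SMARCA4* knockdown. It was 10.2% and 12.9% with *SMARCA1* siRNA A and 20.3% and 19.4% with siRNA C, so that every knockdown library was below both controls.

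*GPI* encodes glucose-6-phosphate isomerase, the enzyme of the following step (chr19:34359480-34402413, plus strand). Its controls were 598.5 and 609.1 CPM. *SMARCA4* siRNA A gave 409.6 and 390.6 CPM and siRNA B 313.3 and 319.0 CPM. *SMARCA1* siRNA A gave 465.0 and 432.9 CPM and siRNA C 391.0 and 409.9 CPM. All 8 knockdown libraries were below both controls, and replicates lay close together within every siRNA. *GPI* fell by 0.76 ± 0.08 on the log2 scale in *SMARCA4* knockdown (adjusted p = 8.2e-05) and by 0.51 ± 0.08 in *SMARCA1* knockdown (adjusted p = 0.00093), and both calls held with any one library left out. Of the *SMARCA4* siRNAs, B was lower than A by a log2 difference of -0.34 ± 0.10, short of the threshold (adjusted p = 0.068).

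Phosphofructokinase commits sugar phosphates to glycolysis, and *PFKP* encodes its platelet type (chr10:3066333-3137718, plus strand). *PFKP* did not follow the pattern of the other genes. It stood at 70.1 and 72.3 CPM in the controls. In *SMARCA4* knockdown it was 85.5 and 56.6 CPM with siRNA A and 84.1 and 67.9 CPM with siRNA B, on both sides of the controls (log2 fold change 0.04 ± 0.16, interval -0.31 to 0.39, adjusted p = 0.84). *SMARCA1* siRNA A gave 79.0 and 70.5 CPM and siRNA C 108.9 and 102.4 CPM. *PFKP* rose with *SMARCA1* siRNA C (log2 fold change 0.57 ± 0.18, adjusted p = 0.027), whereas for siRNA A the log2 fold change was 0.07 ± 0.18 (adjusted p = 0.79) and for both together 0.32 ± 0.16 (interval -0.03 to 0.67, adjusted p = 0.12). The siRNAs themselves differed by 0.50 ± 0.18 on the log2 scale, which was not called (adjusted p = 0.21).

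The other phosphofructokinase genes were lower in part. *PFKM*, the muscle type, fell by 0.55 ± 0.11 on the log2 scale in *SMARCA4* knockdown (adjusted p = 0.0021) and by 0.60 ± 0.10 in *SMARCA1* knockdown (adjusted p = 0.0013). Its *SMARCA4* siRNAs differed, B being lower than A by a log2 difference of -0.54 ± 0.12 (adjusted p = 0.033). Against control, the log2 fold change was -0.28 ± 0.12 for siRNA A (adjusted p = 0.11) and -0.82 ± 0.12 for siRNA B (adjusted p = 0.00057). *PFKL*, the liver type, fell by 0.34 ± 0.10 in *SMARCA4* knockdown (adjusted p = 0.017) and stood at 189.7 to 215.5 CPM in *SMARCA1* knockdown, against 173.6 and 192.2 CPM in the controls. With *SMARCA4* siRNA A alone *PFKL* was not called (-0.26 ± 0.12, adjusted p = 0.11), and with siRNA B alone it was (-0.42 ± 0.12, adjusted p = 0.014). By FPKM, *PFKP* made up 18.1% and 16.9% of the phosphofructokinase RNA in the controls, between 16.6% and 27.5% after *SMARCA4* knockdown and between 19.2% and 26.7% after *SMARCA1* knockdown.

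*ALDOA* encodes aldolase A, which splits fructose bisphosphate (chr16:30064164-30070457, plus strand). Its count was low for a gene of this pathway, between 213 and 437 per library, and it is uncertain. Of its exon bases, 42.8% are also annotated to *CTD-2515O10.6* on the same strand, and how reads on these bases were counted is not given in the sources used here. Its levels were 10.5 and 9.25 CPM in the controls, between 7.47 and 10.97 CPM after *SMARCA4* knockdown and between 8.82 and 13.1 CPM after *SMARCA1* knockdown, overlapping throughout. The log2 fold changes were -0.14 ± 0.18 (interval -0.54 to 0.26, adjusted p = 0.55) and 0.13 ± 0.18 (interval -0.27 to 0.53, adjusted p = 0.58).

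The payoff phase, in which ATP and NADH are made, begins with *GAPDH* (chr12:6534512-6538374, plus strand), the glyceraldehyde-3-phosphate dehydrogenase that is often taken as a reference gene. It was the most abundant gene of the set, at 3513 and 3527 CPM in the controls. It measured 3055 and 2699 CPM with *SMARCA4* siRNA A and 2750.0 and 2242 CPM with siRNA B, all below the controls. *SMARCA1* siRNA A gave 4090 and 2937 CPM, a wider gap between replicates than between the controls and either replicate, and siRNA C gave 3375 and 3725 CPM. *GAPDH* fell by 0.39 ± 0.14 on the log2 scale in *SMARCA4* knockdown (adjusted p = 0.042). This call was lost without either control, either *SMARCA4* siRNA A library, *SMARCA4* siRNA B replicate 2 or either *SMARCA1* siRNA C library, with adjusted p-values up to 0.20. With any one library left out, the log2 fold change lay between -0.43 and -0.29. In *SMARCA1* knockdown the log2 fold change was 0.00 ± 0.14 (interval -0.31 to 0.32, adjusted p = 0.98). The 65 *GAPDH* pseudogenes listed had together between 0.0853% and 0.147% of the counts of *GAPDH*.

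*PGK1* encodes phosphoglycerate kinase 1, which makes the first ATP of this phase (chrX:77910739-78129295, plus strand). Its controls were 417.5 and 383.3 CPM. *SMARCA4* siRNA A gave 277.7 and 250.0 CPM and siRNA B 216.2 and 200.3 CPM, and *SMARCA1* siRNA A gave 327.5 and 293.5 CPM and siRNA C 316.5 and 307.5 CPM. The 2 knockdowns and the controls did not overlap, with *SMARCA4* knockdown lowest and the controls highest. How many of all genes showed this order was not computed. *PGK1* fell by 0.77 ± 0.09 on the log2 scale in *SMARCA4* knockdown (adjusted p = 0.00015) and by 0.36 ± 0.10 in *SMARCA1* knockdown (adjusted p = 0.011). The latter call was lost without control replicate 1 (log2 fold change -0.27, adjusted p = 0.15).

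*ENO1* encodes enolase 1, which forms phosphoenolpyruvate (chr1:8861000-8879190, minus strand). It stood at 1771 and 1712 CPM in the controls. Under *SMARCA4* siRNA A it was 1541 and 1180.4 CPM and under siRNA B 1299 and 967.6 CPM, all below the controls. *SMARCA1* siRNA A gave 1854 and 1417 CPM and siRNA C 1664 and 1610.0 CPM. *ENO1* fell by 0.49 ± 0.15 on the log2 scale in *SMARCA4* knockdown (adjusted p = 0.026), while in *SMARCA1* knockdown the log2 fold change was -0.09 ± 0.16 (interval -0.44 to 0.26, adjusted p = 0.66).

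Pyruvate kinase, encoded by *PKM*, makes ATP again and yields pyruvate (chr15:72199029-72231822, minus strand). *PKM* stood at 1451 and 1508 CPM in the controls. *SMARCA4* siRNA A gave 1344 and 1236 CPM and siRNA B 1104 and 988.3 CPM, and *SMARCA1* siRNA A gave 1422 and 1147 CPM and siRNA C 1311 and 1310.3 CPM. All 8 knockdown libraries were below both controls. *PKM* fell by 0.35 ± 0.11 on the log2 scale in *SMARCA4* knockdown (adjusted p = 0.023), and in *SMARCA1* knockdown the log2 fold change was -0.19 ± 0.11 (interval -0.43 to 0.05, adjusted p = 0.17; 0.019 without *SMARCA1* siRNA A replicate 1). The *SMARCA4* calls of both *ENO1* and *PKM* were lost without *SMARCA4* siRNA A replicate 2, without siRNA B replicate 2 and without either control. In these fits the adjusted p reached 0.17 for *ENO1* and 0.18 for *PKM*. Counts per gene do not separate the M1 and M2 transcripts of *PKM*.

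*LDHA*, the lactate dehydrogenase subunit that favors lactate formation, changed by most (chr11:18394560-18408425, plus strand). It stood at 860.8 and 706.5 CPM in the controls. *SMARCA4* siRNA A gave 270.8 and 175.9 CPM and siRNA B 289.2 and 236.6 CPM, with a mean of 243.1 ± 49.8 CPM (SD, n = 4), which is 31.0% of that in the controls. *SMARCA1* siRNA A gave 423.3 and 387.1 CPM and siRNA C 485.0 and 465.3 CPM, with a mean of 440.2 ± 43.8 CPM (SD, n = 4), which is 56.2% of it. The 2 knockdowns and the controls were fully separated, and the share of all genes with such a separation was not computed. *LDHA* fell by 1.69 ± 0.16 on the log2 scale in *SMARCA4* knockdown (adjusted p = 3.6e-05) and by 0.84 ± 0.16 in *SMARCA1* knockdown (adjusted p = 0.0023). With any one library left out, these log2 fold changes lay between -1.83 and -1.51 and between -0.95 and -0.66, and both kept their calls.

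*LDHB*, the other common subunit, which favors the formation of pyruvate, was far less abundant and fell too. It went from 28.9 and 26.1 CPM in the controls to between 9.27 and 12.2 CPM in *SMARCA4* knockdown (log2 fold change -1.42 ± 0.16, adjusted p = 0.0001) and to between 13.5 and 23.2 CPM in *SMARCA1* knockdown (log2 fold change -0.62 ± 0.16, adjusted p = 0.01). By FPKM, *LDHA* made up 93.6% and 93.1% of the RNA of both subunits in the controls and between 87.7% and 94.5% in the knockdown libraries. Unlike the share of *HK2* among hexokinases, that of *LDHA* overlapped the controls in both knockdowns.

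**Figure D2:**
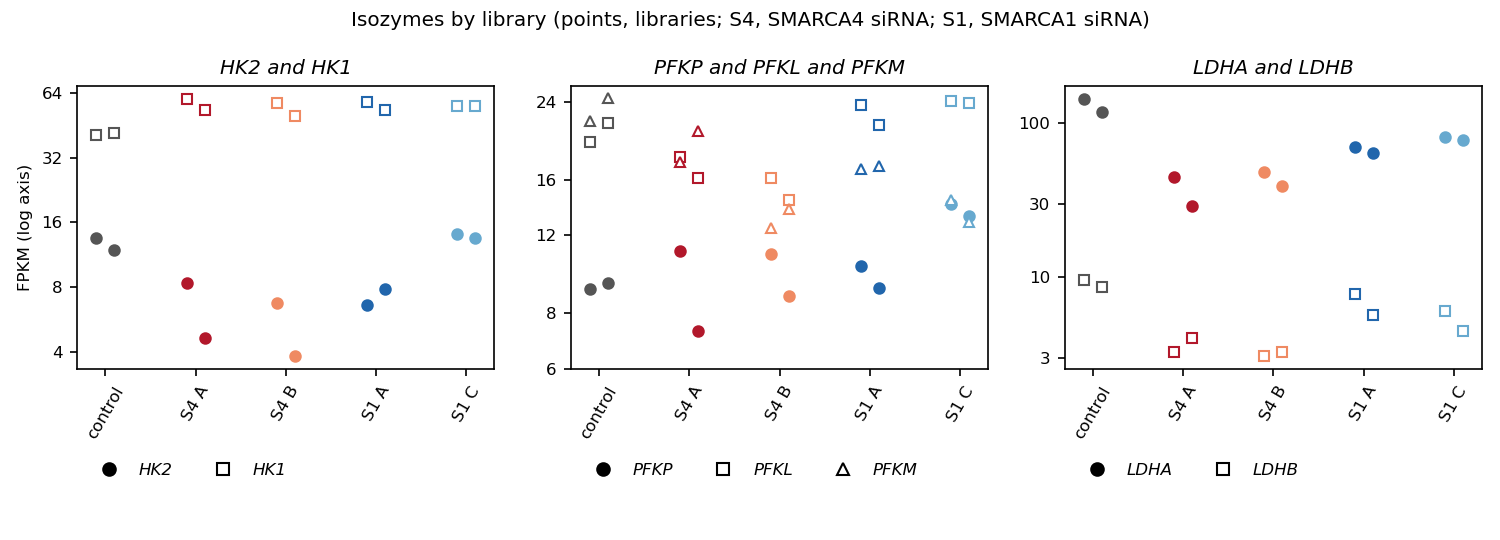
FPKM (log axes) of HK2 and HK1, of the 3 phosphofructokinase genes and of LDHA and LDHB in each library, by group; filled circles are genes of the set and open symbols their isozymes. HK2 fell below the controls in SMARCA4 knockdown (S4) while HK1 rose in all 8 knockdown libraries, and LDHA and LDHB were both below the controls in every knockdown library.

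Compared directly, 7 of the 10 genes were lower in *SMARCA4* than in *SMARCA1* knockdown and none was higher, against 19.1% of all genes tested that were lower. The log2 differences were -0.86 ± 0.14 for *LDHA* (adjusted p = 0.0013), -0.77 ± 0.20 for *HK2* (adjusted p = 0.016) and -0.41 ± 0.08 for *PGK1* (adjusted p = 0.0035). They were -0.40 for both *ENO1* and *GAPDH*, -0.36 for *SLC2A1* and -0.25 for *GPI*, with adjusted p-values between 0.018 and 0.036. *PFKP* (-0.28, interval -0.56 to 0.01), *ALDOA* (-0.27, interval -0.60 to 0.05) and *PKM* (-0.16, interval -0.36 to 0.04) were not called. Only for *LDHA* and *PGK1* did all 4 *SMARCA4* libraries lie below all 4 *SMARCA1* libraries. The share of all genes with such a separation was not computed, so this only describes the 10 genes. The count of 7 dropped to 3 when *SMARCA4* siRNA A replicate 2, *SMARCA4* siRNA B replicate 2 or either *SMARCA1* siRNA C replicate was left out, and it was 5 without either control library or with only the compared groups fitted. The differences of *LDHA*, *HK2* and *PGK1* kept their calls with any one library left out.

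**Figure D3:**
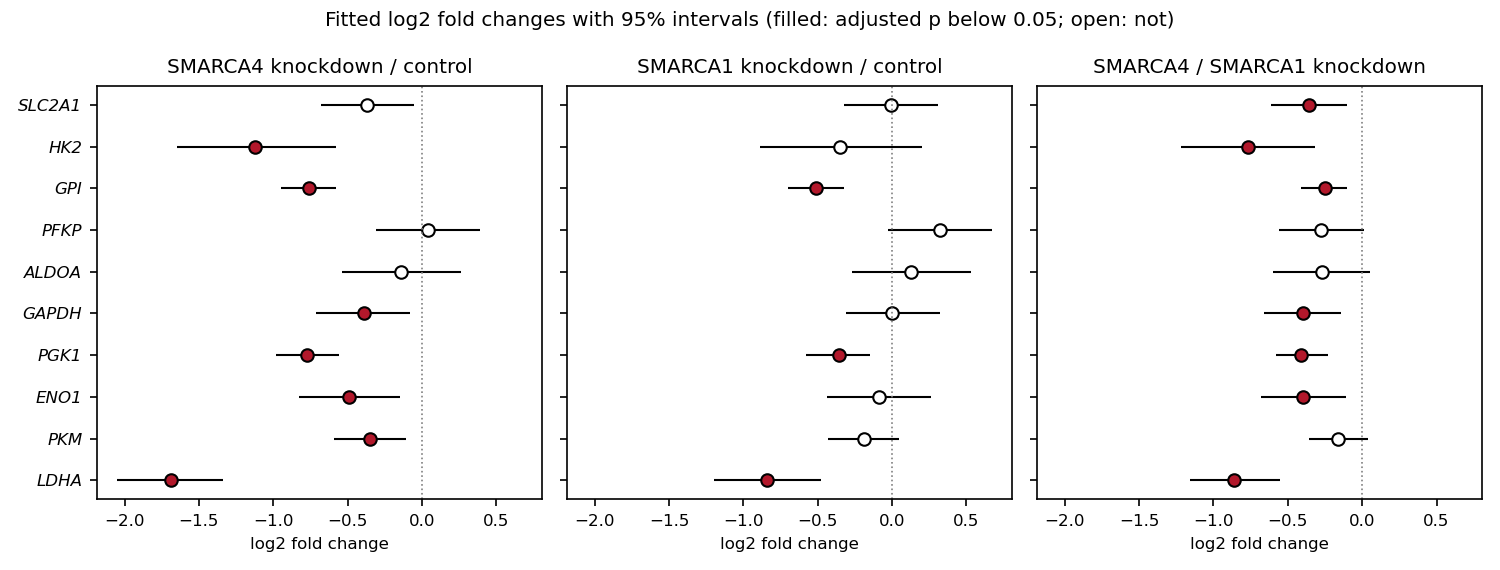
Fitted log2 fold changes (horizontal axes; points, with lines for 95% intervals) of the 10 genes in SMARCA4 knockdown and SMARCA1 knockdown, each against control, and of SMARCA4 against SMARCA1 knockdown; filled points have an adjusted p below 0.05. LDHA lay furthest from 0 in all 3 panels, at -1.69, -0.84 and -0.86.

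No gene of the set was called between the siRNAs of one target, which does not show that the siRNAs acted alike. Between *SMARCA4* siRNA B and siRNA A, 0 of the 10 genes were called, against 6.20% of all genes, and at an unadjusted p below 0.05 *GPI*, *PGK1* and *PKM* were lower with siRNA B. Between *SMARCA1* siRNA C and siRNA A, 0 of the 10 were called, against 0.0118% of all genes, and at an unadjusted p below 0.05 *HK2* and *PFKP* were higher with siRNA C. DESeq2 called 1 of the 10 genes in each of these comparisons, and with no filter on low counts 2 of the 10, *HK2* and *PFKP*, were called higher with *SMARCA1* siRNA C. Taken singly against the controls, *SMARCA4* siRNA A lowered 4 of the 10 genes (*LDHA*, *HK2*, *PGK1* and *GPI*; 15.8% of all genes were lower) and siRNA B lowered 7 (21.9% of all genes). *SMARCA1* siRNA A lowered 3 (16.3% of all genes) and siRNA C the same 3 (21.5% of all genes), which were *LDHA*, *GPI* and *PGK1*. Libraries that lay wholly below the controls, the criterion of the plot of CPM by library, were found for 29.0% of all genes in *SMARCA4* knockdown and 29.1% in *SMARCA1* knockdown.

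Levels per length gave the order of the genes within a library. In the controls, *GAPDH* led with 1466 and 1472 FPKM, followed by *ENO1* (339.5 and 328.2), *PKM* (169.3 and 175.9), *LDHA* (142.6 and 117.0), *PGK1* (76.8 and 70.5) and *GPI* (56.0 and 57.0). *HK2* (13.5 and 11.9 FPKM) and *SLC2A1* (12.2 and 11.6 FPKM) overlapped each other, and *PFKP* (9.08 and 9.36 FPKM) and *ALDOA* (2.75 and 2.42 FPKM) came last. The place of *ALDOA* is uncertain, as its count is, since 42.8% of its exon bases are shared with a gene on the same strand. In *SMARCA4* knockdown *LDHA* stood between 29.1 and 47.9 FPKM, in the range of *PGK1* (36.9 to 51.1) and *GPI* (29.3 to 38.4). With siRNA A it lay below *PGK1* in both libraries and below *GPI* in replicate 2, and with siRNA B it lay above both genes in both libraries. In *SMARCA1* knockdown it remained above both, at 64.1 to 80.3 FPKM. As a share of all counts, the 10 genes took 0.886% and 0.879% in the controls, between 0.524% and 0.700% after *SMARCA4* knockdown and between 0.687% and 0.899% after *SMARCA1* knockdown. The widest exact 95% binomial interval of these shares was 0.882% to 0.890%, which covers counting error only.

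Over the 10 libraries, the genes of this set whose log2 CPM varied most alike were *GAPDH* and *ENO1* (Pearson's r = 0.96), *GPI* and *PGK1* (0.94) and *SLC2A1* and *HK2* (0.93). *ALDOA*, with a mean under 10 CPM, was not compared. Of the 9 genes compared, *PFKP* was least alike the rest, with r between -0.15 with *GPI* and 0.71 with *SLC2A1*. Among 9481 genes with a mean of at least 10 CPM, the closest to *LDHA* was *LLPH* (r = 0.976), to *PGK1* *EIF3M* (0.995), to *GPI* *RPL12* (0.986) and to *HK2* *CCT6A* (0.964). The libraries fall into the groups of the study and share their depth and scaling, so these values only describe the similarity of patterns.

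Around the 10 genes, the other steps of glucose metabolism moved in part. Over all genes tested, 22.3% were called lower and 22.8% higher in *SMARCA4* knockdown. In *SMARCA1* knockdown these shares were 23.0% and 23.8%, and the counts for each list are to be read beside them. Of 20 further glycolysis enzymes 12 were tested, of which *SMARCA4* knockdown lowered 4 and raised 2, and *SMARCA1* knockdown lowered 3 and raised 2. *TPI1*, the triose phosphate isomerase, fell from 846.6 and 800.9 CPM to between 377.4 and 575.7 CPM in *SMARCA4* knockdown (log2 fold change -0.80 ± 0.13, adjusted p = 0.0008), and was 651.6 to 879.8 CPM in *SMARCA1* knockdown. *PGAM1*, the phosphoglycerate mutase between *PGK1* and *ENO1*, rose by a log2 fold change of 0.41 ± 0.14 (adjusted p = 0.038) and 0.62 ± 0.15 (adjusted p = 0.006), and *ENO2*, the neuronal enolase, fell by 0.76 ± 0.19 on the log2 scale in *SMARCA1* knockdown (adjusted p = 0.0076). *ALDOC*, the brain aldolase, was 24.6 and 22.6 CPM in the controls and between 15.4 and 26.6 CPM in the knockdown libraries. Among 6 regulators, *PFKFB4*, whose product can both form and break down the phosphofructokinase activator fructose 2,6-bisphosphate, rose in both knockdowns (0.73 ± 0.13 and 0.47 ± 0.13, adjusted p = 0.0015 and 0.014). *TIGAR*, a phosphatase that lowers that activator, fell in both (-0.58 ± 0.16 and -1.01 ± 0.16; adjusted p = 0.012 and 0.00074).

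Of 12 other transporters of sugar and lactate tested, 7 rose and 1 fell in *SMARCA4* knockdown, against 22.8% and 22.3% of all genes. In *SMARCA1* knockdown 6 rose and 1 fell, against 23.8% and 23.0% of all genes. *SLC2A3*, a glucose transporter of high affinity, rose from 14.6 and 15.5 CPM to between 19.4 and 42.5 CPM in *SMARCA4* knockdown (log2 fold change 1.00 ± 0.12, adjusted p = 0.00016) and to between 19.4 and 29.7 CPM in *SMARCA1* knockdown (0.65 ± 0.12, adjusted p = 0.0018). The *SMARCA4* siRNAs differed in the size of this rise, at 0.52 ± 0.14 for siRNA A and 1.47 ± 0.14 for siRNA B. *SLC2A3* was called higher with siRNA B than with siRNA A (log2 difference 0.95 ± 0.13, adjusted p = 0.0076). *SLC2A10* rose by a log2 fold change of 1.18 ± 0.16 in *SMARCA4* knockdown (adjusted p = 0.00025) and of 0.65 ± 0.15 in *SMARCA1* knockdown (adjusted p = 0.0068). *SLC5A1*, a sodium-coupled glucose transporter, and *SLC2A5*, a fructose transporter, rose in both but stayed below 4 CPM. The one that fell in both was *SLC16A3*, which exports lactate, from 26.9 and 21.3 CPM to between 6.67 and 15.1 CPM in *SMARCA4* knockdown (log2 fold change -1.16 ± 0.25, adjusted p = 0.0038) and to between 7.92 and 14.6 CPM in *SMARCA1* knockdown (-1.09 ± 0.25, adjusted p = 0.0055).

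Pyruvate enters mitochondria through a carrier and is oxidized by pyruvate dehydrogenase. Of 12 genes tested for this step, *SMARCA4* knockdown lowered 7 and raised 1, against 22.3% and 22.8% of all genes. There, *SMARCA1* knockdown lowered 6 and raised none, against 23.0% and 23.8% of all genes. *PDK1*, a kinase that inactivates pyruvate dehydrogenase, fell from 58.0 and 48.8 CPM to between 12.5 and 24.8 CPM in *SMARCA4* knockdown (log2 fold change -1.57 ± 0.17, adjusted p = 9.1e-05) and to between 13.7 and 22.4 CPM in *SMARCA1* knockdown (-1.56 ± 0.17, adjusted p = 0.00013). Unlike *LDHA*, its log2 difference between the knockdowns was -0.01 ± 0.15 (interval -0.35 to 0.32). *PDK3*, a kinase of the same family, fell in both (-1.14 ± 0.15 and -1.17 ± 0.15; adjusted p = 0.00023 and 0.00025). *DLAT*, a subunit of pyruvate dehydrogenase itself, fell in *SMARCA4* knockdown (-0.85 ± 0.12, adjusted p = 0.00032), and *PDP1*, a phosphatase that activates the complex, fell in *SMARCA1* knockdown (-0.63 ± 0.14, adjusted p = 0.0049).

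Calls in the branches of the pathway were mixed. Over all genes, 22.3% were called lower and 22.8% higher in *SMARCA4* knockdown, and 23.0% and 23.8% in *SMARCA1* knockdown. Of 7 genes of the pentose phosphate pathway, *SMARCA4* knockdown lowered 3, among them the transketolase *TKT* (-0.71 ± 0.11, adjusted p = 0.00056), whereas *SMARCA1* knockdown lowered none. *TKT* differed between the knockdowns themselves by -0.82 ± 0.09 on the log2 scale (adjusted p = 0.00021). Of 4 genes of gluconeogenesis, 3 fell and 1 rose in *SMARCA4* knockdown, and 1 fell and 1 rose in *SMARCA1* knockdown, *PCK2*, the mitochondrial phosphoenolpyruvate carboxykinase, rising in both (0.42 ± 0.15 and 1.05 ± 0.15; adjusted p = 0.043 and 0.00048). Of 12 genes of glycogen metabolism, 2 rose and 2 fell in *SMARCA4* knockdown, while 2 rose and 6 fell in *SMARCA1* knockdown, among them the muscle phosphorylase *PYGM* (-1.39 ± 0.21, adjusted p = 0.00065).

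Genes of the hypoxia response that are not glycolytic went both ways. Of 18 tested, 6 rose and 4 fell in *SMARCA4* knockdown, against 22.8% and 22.3% of all genes. In *SMARCA1* knockdown 7 rose and 4 fell, against 23.8% and 23.0% of all genes. Calls were thus common in general, and the median log2 fold changes of the list were 0.09 and 0.01. *ADM*, which encodes the vasodilator peptide adrenomedullin, rose from 15.9 and 16.5 CPM to between 44 and 73.7 CPM in *SMARCA4* knockdown (log2 fold change 1.79 ± 0.23, adjusted p = 0.00021) and to between 35.5 and 58.6 CPM in *SMARCA1* knockdown (1.61 ± 0.23, adjusted p = 0.00044). *MXI1*, a repressor that competes with MYC for MAX, fell in both (-0.84 ± 0.15 and -0.92 ± 0.15; adjusted p = 0.0014 and 0.00092).

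**Figure D4:**
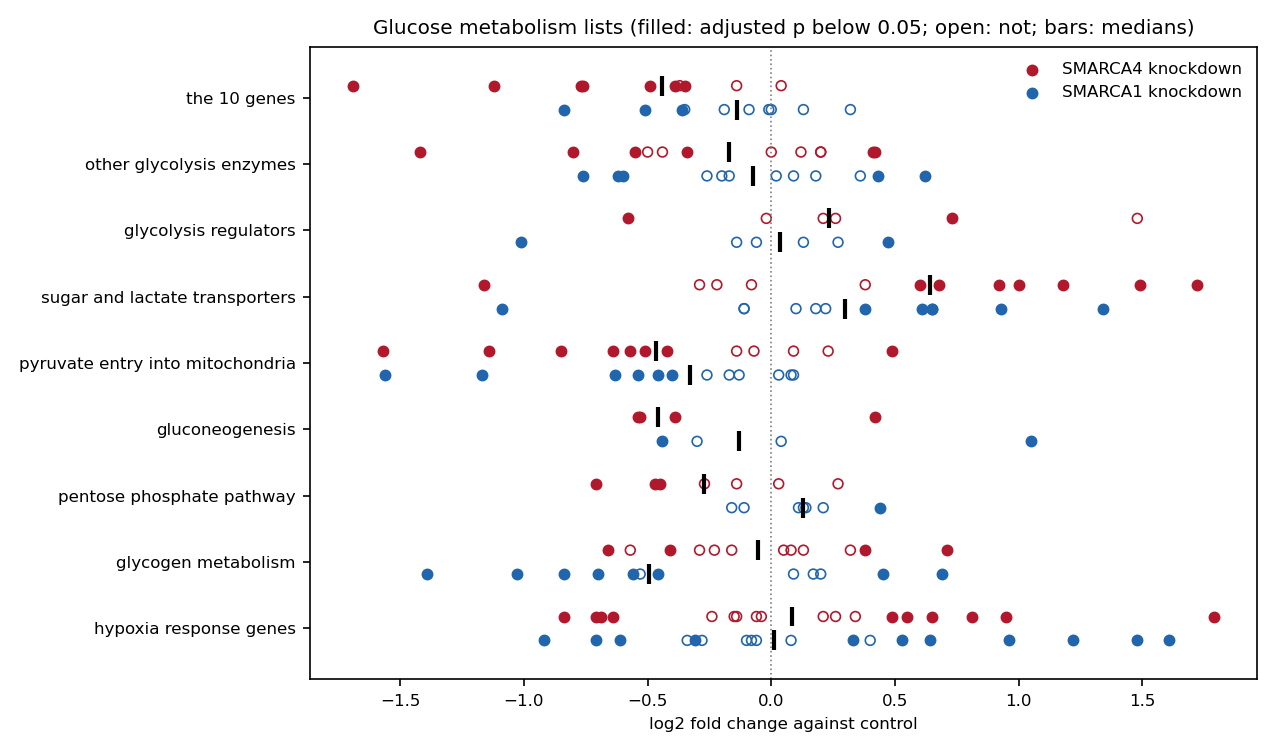
Log2 fold changes against control (horizontal axis) of the genes tested in each list (rows) in SMARCA4 and SMARCA1 knockdown; filled points have an adjusted p below 0.05, and black bars are medians. The 10 genes had medians of -0.44 and -0.14, the transporters 0.64 and 0.30, and the genes of pyruvate entry -0.47 and -0.33.

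Other differences went along with the knockdowns. The 12 interferon response genes examined rose in both, 12 of 12, and their summed level went from 61.6 and 65.6 CPM in the controls to between 10463 and 31925 CPM after *SMARCA4* knockdown and between 15465 and 32407 CPM after *SMARCA1* knockdown. Markers of other cell types, 16 in number, summed to 84.4 to 91.2 CPM in the controls. The sums were 121.4 to 238.0 CPM in *SMARCA4* knockdown and 154.2 to 238.1 CPM in *SMARCA1* knockdown. In every library of these groups, 5, 1 and 2 markers were at 0, and 9, 9 and 10 were under 1 CPM. A 0 in every library is more easily reached in 2 control libraries than in 4, so the counts at 0 do not compare the groups. *KRT14*, a basal keratin among the 16 markers, rose from 3.05 and 3.57 CPM to between 36.9 and 107.5 CPM in *SMARCA4* knockdown (log2 fold change 4.40 ± 0.24, adjusted p = 2.3e-06). In *SMARCA1* knockdown it rose to between 39.5 and 84.4 CPM (4.23 ± 0.23, adjusted p = 2.7e-06). The basal markers *KRT5* and *TP63* were at or near 0, with a highest group mean of 0.0518 CPM. Summed prostate epithelial markers lay between 11432 and 11595 CPM in the controls. They lay between 11795 and 13178 CPM after *SMARCA4* knockdown and between 9810.2 and 11386 CPM after *SMARCA1* knockdown. These sums hide calls in both directions. Of the 13 markers, 6 were higher and 2 lower in *SMARCA4* knockdown, against 22.8% and 22.3% of all genes. In *SMARCA1* knockdown 3 were higher and 6 lower, against 23.8% and 23.0%. *KRT8* rose in both (log2 fold changes 1.66 ± 0.22 and 1.99 ± 0.22) and *FOLH1* fell in both (-0.86 ± 0.13 and -1.78 ± 0.13). The part of these differences in the levels of the glycolytic genes was not tested, and, as the sources used here do not give what the controls were transfected with, transfection of an siRNA and loss of its target cannot be told apart in either comparison against control.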

How the data were processed

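Raw counts per gene were deposited by the authors for 10 libraries, as unscaled integers under 59386 gene symbols. Per the study's methods and the submitters' processing notes, RNA was enriched by poly(A), paired-end reads of strand-specific libraries were aligned to hg38 with HISAT2 2.1.0 and counted with featureCounts 1.5.2 on GENCODE with *IGF1R-AS1* added; the release is not given in the sources used here. Multi-mapping and overlapping reads can be lost in such counts. Groups and replicate numbers came from the labels.

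Genes were kept by filterByExpr (minimum count 10, minimum total count 15), which left 16899, among them all 10 described here, and were fitted with the quasi-likelihood test of edgeR 4.0.16 (R 4.3.3, limma 3.58.1) after TMM scaling, with all 10 libraries as 5 groups. A knockdown was tested through the average of its siRNA groups. P-values were adjusted over all genes tested by the Benjamini-Hochberg method, and the threshold was 0.05. Standard errors were taken from the fold change on the log2 scale and the F statistic. The procedure was tested on simulated data.

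The 10 genes and the lists around them were chosen with earlier results of these data known. Beside the 10 genes, their isozymes and the knockdown targets, up to 3 genes per list and knockdown were named, those of largest absolute log2 fold change among called genes with a mean of at least 1 CPM. The alternatives were DESeq2 1.42.0, other scalings and filters, the replicate block, the compared groups alone, each siRNA alone and each library left out. Counts of replicates differed by more than sampling noise (chi-square per gene 3.80 to 60.6). Upstream sequences and starts came from RefSeq (GRCh38.p14). A single result of the pentose phosphate list is not reported here.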

Additional observations from a re-analysis of the deposited data

Results flagged for a closer look

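In 7 of the 10 genes the effect of *SMARCA4* knockdown differed from that of *SMARCA1* knockdown by a test of the difference itself. All 7 were lower in *SMARCA4* knockdown, against 19.1% of all genes tested. The count of 7 rested in part on single libraries. The log2 differences, *SMARCA4* minus *SMARCA1* knockdown, were -0.86 for *LDHA*, -0.77 for *HK2*, -0.41 for *PGK1*, -0.40 for *GAPDH*, -0.40 for *ENO1*, -0.36 for *SLC2A1* and -0.25 for *GPI*. For *GAPDH* and *SLC2A1*, the log2 fold changes against control were 0.00 and -0.01 in *SMARCA1* knockdown and -0.39 and -0.37 in *SMARCA4* knockdown.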

How the results depend on the processing

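The counts of genes called lower rested in part on single libraries. In *SMARCA4* knockdown the count of 7 ranged from 3 to 8 with a library left out, and it was 4 without *SMARCA4* siRNA A replicate 2, *SMARCA4* siRNA B replicate 2 or control replicate 2, 3 without control replicate 1, and 4 with siRNA A alone. Between the knockdowns it ranged from 3 to 8, and in *SMARCA1* knockdown from 2 to 4. Between the *SMARCA4* siRNAs the count of 0 ranged from 0 to 3, with 2 and 3 when *SMARCA1* siRNA A replicate 1 or 2 was left out, and DESeq2 gave 1. Between the *SMARCA1* siRNAs the count of 0 became 2 with no filter on low counts and 1 with DESeq2. In *SMARCA1* knockdown, *PFKP* was called higher in the compared groups alone (adjusted p = 0.038) and without either *SMARCA4* siRNA A library, and *HK2* was called lower in the compared groups alone (adjusted p = 0.043) and with no filter on low counts (adjusted p = 0.035). *SLC2A1* in *SMARCA4* knockdown passed under 9 alternatives, among them upper quartile scaling (adjusted p = 0.031). *PFKP* was called lower in *SMARCA4* than in *SMARCA1* knockdown without *SMARCA4* siRNA A replicate 1 (adjusted p = 0.014). The cause of these changes was not tested.

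The replicate numbers were not taken as pairing the libraries, since not every correlation of replicate differences between groups was above 0.1. Among *SMARCA4* siRNA A, *SMARCA4* siRNA B and *SMARCA1* siRNA A the correlations were 0.16 to 0.51, and between the other groups -0.19 to 0.06. With the replicate number as a block, *SLC2A1* had a log2 fold change of -0.38 in *SMARCA4* knockdown (adjusted p = 0.03), and no other call among the 10 genes changed.

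Over all genes, calls in *SMARCA4* knockdown went from 7616 to 4413 and 4913 without control replicate 1 or 2, in *SMARCA1* knockdown from 7911 to 4430 and 5094, and between the knockdowns from 5982 to 3683 without *SMARCA1* siRNA C replicate 1 and 3839 without *SMARCA4* siRNA B replicate 2. Between the *SMARCA4* siRNAs they went from 1048 to between 48 and 2907, and between the *SMARCA1* siRNAs from 2 to between 0 and 1927. Other scalings moved the median of all genes by less than 0.1. No called gene of the set reversed its direction under any alternative, and 73 values of genes not called changed sign. With 2 libraries a group, differences within the intervals given were not detectable.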
